A study of Mus musculus with 16 samples.

Results

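Scavenger receptors are surface proteins with which macrophages bind and take up modified lipoproteins, microbes, particles and dying cells. The group described here holds 8 genes of the 54532 in the deposited tables, found by gene name: Msr1 and Marco (class A receptors), Scarb1 (class B), Olr1 and Clec7a (receptors with a C-type lectin fold), Stab1 (a stabilin), Cd163 (a receptor with scavenger receptor cysteine-rich domains) and Cd5l (a secreted protein with the same kind of domain). All 8 were among the 15257 genes tested. RNA had been sequenced from bronchoalveolar lavage, the cells rinsed out of the airspaces, of mice on day 14 after an oropharyngeal dose of bleomycin or saline. Bleomycin breaks DNA, and the lung injury it causes is a standard mouse model of pulmonary fibrosis. The 4 groups were bleomycin males, bleomycin females, saline males and saline females, with 4 libraries each. The bleomycin dose was 4 U per kg of body weight, and all mice were 8 to 10 weeks old and of the C57BL/6 background, written C56BL/6J in the strain label. No genetic change, cell sort or pooling of animals is named in the labels. The labels also do not say that the 4 libraries of a group came from separate animals, so the p-values measure the spread between these libraries.

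In the healthy lung, alveolar macrophages live in the airspace and clear surfactant lipid, dust and bacteria, and Marco is a classical receptor of these cells for unopsonised particles. After injury, blood monocytes enter the airspace and become macrophages there. Stab1, Cd163 and Cd5l are known mainly from tissue macrophages of other organs, such as Kupffer cells of the liver.

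The libraries held 16385784 to 24567609 counts. Levels of single genes are given in CPM, counts relative to library size scaled with the trimmed mean of M-values (TMM), and levels compared between genes in the deposited FPKM, which is per length. The lavage label was checked against 8 genes of macrophages in general, such as Lyz2 and Adgre1, whose summed level was 58500 to 65500 CPM in bleomycin males, 46400 to 66500 CPM in bleomycin females, 25600 to 30200 CPM in saline males and 24500 to 25700 CPM in saline females. Other cells were in the lavage after bleomycin too. The 12 T cell markers summed to 341 to 614 CPM in bleomycin males and 303 to 531 CPM in bleomycin females, against 261 to 274 CPM in saline males and 240 to 269 CPM in saline females, and 11 of them passed the test as higher and 1, Cd2, as lower. The sums do not show the size of the rise of most of them. The mean of log2(CPM + 1) over the 12 was 4.353 to 5.515 in bleomycin males and 4.134 to 5.331 in bleomycin females. In saline males it was 0.8666 to 1.038 and in saline females 0.8125 to 0.8999. Their median log2 fold change, averaged over the sexes, was 7.27, a fitted value that rests on low saline levels. With saline means this low, most of these markers could pass the filter on low counts (limit 0.51 CPM) only through bleomycin libraries. Their direction was therefore partly set by the filter. Beside these counts and those of the next lists, 34.7% of all genes tested passed as higher and 28.8% as lower, averaged over the sexes. Of 14 markers of resident alveolar macrophages, 11 were lower and 1 was higher with bleomycin averaged over the sexes, and their summed level was 17100 to 25300 CPM in bleomycin males and 15800 to 29800 CPM in bleomycin females, against 22800 to 25100 CPM in saline males and 28800 to 31500 CPM in saline females. The mean of log2(CPM + 1) over these markers did not overlap between the treatments. It was 7.674 to 8.172 in bleomycin males and 7.69 to 8.455 in bleomycin females. Saline males had 9.366 to 9.508 and saline females 9.514 to 9.562. Of 14 markers of monocytes and the macrophages derived from them, 13 were higher and 1 did not pass, with sums of 6380 to 11600 CPM in bleomycin males and 4800 to 8580 CPM in bleomycin females, against 210 to 267 CPM in saline males and 220 to 246 CPM in saline females, where the monocyte marker Ly6c2 was at 0 in females. Much of these sums with bleomycin is Apoe, 1 of the 14 markers, which is also given below among the lipoprotein genes. It averaged 6024 CPM in bleomycin males and 4473 CPM in bleomycin females, against 88.7 CPM in saline males and 62.6 CPM in saline females. In such bulk samples fewer cells of a type and less RNA per cell cannot be told apart, and the part of these cell types in the results on the receptors was not tested. The 3 bleomycin libraries C33 (male), C49 and C50 (female) carry codes apart from the run C65 to C77 of the other 13. The labels do not say what the codes stand for. Without them 449 genes were higher and 221 lower in bleomycin males than in bleomycin females, against 5 and 4 with all libraries.

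Per length, Clec7a was the most abundant of the 8 in every group, and Cd5l or Cd163 the least. Its mean was 591.9 ± 50.48 FPKM in bleomycin males, 565.0 ± 28.79 in bleomycin females, 464.6 ± 27.93 in saline males and 479.4 ± 26.4 in saline females (SD, n = 4 each), which placed it at ranks 62, 61, 46 and 44 of all genes. In bleomycin males Marco (165.3 FPKM) and Olr1 (104.0 FPKM) followed with ranges that overlapped, then Msr1 (46.39), Scarb1 (21.41), Stab1 (4.532), Cd5l (2.572) and Cd163 (0.1908). Bleomycin females had the same order, with 235.2 FPKM of Marco, 108.5 of Olr1, 44.30 of Msr1, 25.25 of Scarb1, 4.598 of Stab1, 1.334 of Cd5l and 0.2021 of Cd163. In both bleomycin groups every neighbouring pair but Marco and Olr1 was separated in all 4 libraries. Msr1 stood above Scarb1 in both bleomycin groups and below it in both saline groups. In saline males the levels were 131.6 FPKM of Marco, 126.1 of Olr1, 21.22 of Scarb1, 2.598 of Msr1, 0.1269 of Stab1, 0.06277 of Cd163 and 0.01991 of Cd5l, and in saline females 167.6, 136.8, 25.89 and 3.813 FPKM of Marco, Olr1, Scarb1 and Msr1. The lowest places in saline females were held by Cd163 (0.08336 FPKM) and Stab1 (0.06538 FPKM), whose ranges overlapped, and by Cd5l, which had 0 counts. Neighbours whose ranges overlapped in saline males were Marco with Olr1 and Cd163 with Cd5l.

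**Figure D1:**
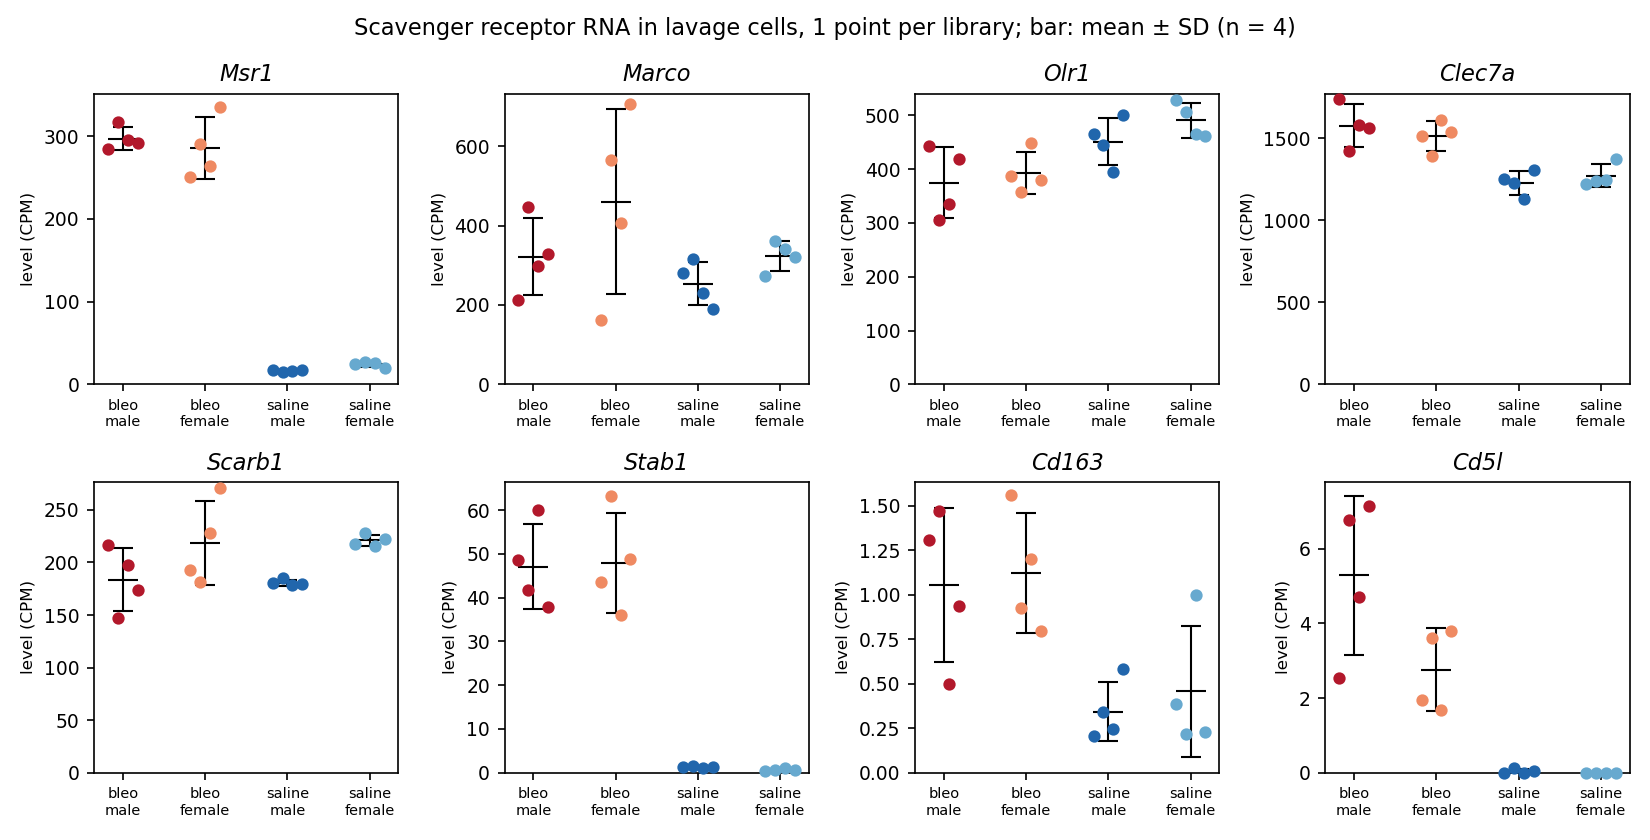
Level of the 8 genes in each of the 16 libraries, in CPM with TMM scaling on a linear axis from 0, with 1 point per library, bleomycin males and females left of saline males and females, and bars for the group mean ± SD (n = 4). Msr1, Stab1 and Cd5l are separated between all bleomycin and all saline libraries by a wide gap, Clec7a by a narrow one, and the other 4 genes overlap.

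Averaged over the sexes, 5 of the 8 genes rose with bleomycin (Msr1, Stab1, Cd163, Clec7a and Cd5l), 1 fell (Olr1) and 2 did not pass the test (Marco and Scarb1). Their median log2 fold change was 0.932, against 0.0116 over all genes tested. Of all genes tested, 63.6% passed, 34.7% as higher and 28.8% as lower, so 6 of 8 is close to the share of the whole table and is no sign of anything particular to these genes. What set the members apart from one another was size. Of the 5 that rose, Cd163 and Cd5l passed the filter on low counts through bleomycin libraries alone: 7 and 8 of the 8 bleomycin libraries exceeded its limit of 0.51 CPM, against 2 and 0 of the 8 saline libraries. Their rise was therefore partly set by the filter. In males 5 genes were higher and 0 lower with edgeR, beside 31.5% and 24.9% of all genes, where Olr1 was lower at an unadjusted p of 0.0301 and DESeq2 called it. In females 5 were higher and 1 lower, beside 26.7% and 17.2%.

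Msr1 (scavenger receptor A, which binds oxidised and acetylated low-density lipoprotein and bacterial surface molecules) lies on chromosome 8 from 39581685 to 39642673, minus strand. Coordinates here are those of the deposited table, which match GRCm38. It had 285, 317, 295 and 292 CPM in bleomycin males and 251, 291, 264 and 336 CPM in bleomycin females, against 17.2, 14.9, 16.2 and 17.8 CPM in saline males and 24.4, 27.1, 25.6 and 20.1 CPM in saline females. Every bleomycin library was far above every saline library. Of all genes tested, 19.2% had every bleomycin library above every saline library, by any margin. The rise was 4.17 in males on the log2 scale (SE 0.11, adjusted p = 1.75e-14, edgeR quasi-likelihood test with Benjamini-Hochberg adjustment) and 3.55 in females (SE 0.11, adjusted p = 8.03e-14), a mean of 14.5-fold. No other member had so small a spread in bleomycin males, with a coefficient of variation of 4.58%.

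Marco (macrophage receptor with collagenous structure, the other class A member) lies on chromosome 1 from 120474538 to 120505024, minus strand. It had 213, 448, 298 and 328 CPM in bleomycin males and 162, 567, 407 and 706 CPM in bleomycin females, against 281, 315, 230 and 190 CPM in saline males and 274, 361, 341 and 322 CPM in saline females. The bleomycin libraries ran on both sides of the saline ones, and the highest was 4.35 times the lowest, against 1.9 times among the saline libraries. The change of 0.42 on the log2 scale averaged over the sexes (SE 0.22, adjusted p = 0.0942 by the edgeR test) did not pass. In males it was 0.34 (SE 0.30, adjusted p = 0.352) and in females 0.51 (SE 0.30, adjusted p = 0.194). The averaged change passed under several other settings. With no filter on low counts it was 0.407 (adjusted p = 0.0126). Without C49, the lowest bleomycin library, it was 0.565 (adjusted p = 0.00242), without C33, the next lowest bleomycin library, it was 0.502 (adjusted p = 0.0481), and without C33, C49 and C50 together it was 0.591 (adjusted p = 0.000747).

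Msr1 and Marco thus stood in a different proportion with bleomycin. Per length, Msr1 was at 40.6, 21.5, 30.1 and 27.1% of the Marco level in bleomycin males and at 47.0, 15.6, 19.7 and 14.4% in bleomycin females, against 1.86, 1.43, 2.14 and 2.85% in saline males and 2.71, 2.28, 2.28 and 1.89% in saline females. The ranges of the bleomycin and saline libraries did not overlap, which follows from the rise of Msr1 just described. The proportion varied most in bleomycin females (24.2 ± 15.4%, SD, n = 4), where Marco did.

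RefSeq (GRCm38.p6) listed the promoters of 6 of the 8 members (Marco, Olr1, Stab1, Cd163, Clec7a and Cd5l), and all but that of Cd163 are printed. Each sequence is the 250 bases before the start, read 5′ to 3′ on the gene's strand. The shown sets are Stab1 and Cd5l, which rose strongly from a low level, Olr1 and Clec7a, adjacent genes that moved in opposite directions, and Marco, which varied between libraries. Capitals mark matches on either strand to 6 motifs: GAGGAA (the core of the PU.1 site), TGCTGA (a MAF half-site), TGANTCA (AP-1), AGGTCA (a nuclear receptor half-site), TGACNNNGC (the antioxidant response element) and TATAAA (the TATA box). No matches overlapped one another.
Stab1, chr14:31168642-31168891, minus strand: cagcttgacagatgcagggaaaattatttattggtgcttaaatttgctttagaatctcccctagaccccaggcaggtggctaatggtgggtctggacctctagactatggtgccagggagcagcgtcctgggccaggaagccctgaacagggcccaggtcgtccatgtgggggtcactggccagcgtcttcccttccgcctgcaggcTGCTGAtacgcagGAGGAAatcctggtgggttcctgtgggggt
Cd5l, chr3:87357631-87357880, plus strand: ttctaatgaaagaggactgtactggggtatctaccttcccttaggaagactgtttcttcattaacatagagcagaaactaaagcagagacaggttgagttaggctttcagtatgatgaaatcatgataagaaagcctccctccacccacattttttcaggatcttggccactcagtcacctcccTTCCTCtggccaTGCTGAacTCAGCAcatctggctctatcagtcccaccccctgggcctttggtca
Marco, chr1:120505025-120505274, minus strand: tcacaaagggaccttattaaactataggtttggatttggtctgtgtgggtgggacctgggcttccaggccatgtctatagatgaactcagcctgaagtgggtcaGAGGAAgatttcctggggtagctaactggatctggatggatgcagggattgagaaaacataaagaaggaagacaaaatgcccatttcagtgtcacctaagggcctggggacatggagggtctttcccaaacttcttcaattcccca
Olr1, chr6:129507166-129507415, minus strand: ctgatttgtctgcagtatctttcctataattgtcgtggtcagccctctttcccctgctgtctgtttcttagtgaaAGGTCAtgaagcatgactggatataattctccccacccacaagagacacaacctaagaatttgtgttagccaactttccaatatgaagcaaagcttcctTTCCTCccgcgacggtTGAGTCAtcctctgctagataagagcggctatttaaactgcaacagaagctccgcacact
Clec7a, chr6:129472780-129473029, minus strand: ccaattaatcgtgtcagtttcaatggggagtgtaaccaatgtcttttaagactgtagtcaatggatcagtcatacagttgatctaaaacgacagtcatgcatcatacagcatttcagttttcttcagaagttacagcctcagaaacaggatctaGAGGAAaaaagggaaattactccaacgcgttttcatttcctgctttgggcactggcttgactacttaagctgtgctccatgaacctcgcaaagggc

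GAGGAA or its reverse complement stood in 5 of the 6 promoters, against 23.3% of 32851 promoters of the same length: 146 bases before the start in Marco, 76 in Olr1, 30 in Stab1, 96 in Clec7a and 66 in Cd5l. TGCTGA was found in 2, once in Stab1 at 43 bases and at 54 and 46 bases in Cd5l, against 16.1% of all promoters. Olr1 alone of the 6 held TGANTCA, at 60 bases, and AGGTCA, at 175 bases, against 6.75% and 14% of all promoters. TGACNNNGC and TATAAA were found in 0 of the 6, against 10.2% and 12.4%. These are matches of letters and do not show that a factor binds there.

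Olr1 (LOX-1, a lectin-like receptor for oxidised low-density lipoprotein) and Clec7a (dectin-1, the receptor for fungal beta-glucan) are near neighbours in the lectin cluster of chromosome 6. Clec7a spans 129461591 to 129472779 and Olr1 129485244 to 129507165, both on the minus strand, with 12464 bases between them. They moved in opposite directions. Olr1 had 443, 305, 335 and 419 CPM in bleomycin males and 388, 358, 449 and 380 CPM in bleomycin females, against 465, 445, 395 and 500 CPM in saline males and 530, 507, 466 and 462 CPM in saline females. The females did not overlap (15.3% of all genes were lower in this way), and in males the bleomycin libraries C33 and C67 reached into the saline range. Averaged over the sexes the level fell by 0.29 on the log2 scale (SE 0.080, adjusted p = 0.00391 by the edgeR test). In females it fell by 0.32 (SE 0.11, adjusted p = 0.0291), while the change of -0.27 in males (SE 0.11, adjusted p = 0.0528) missed the threshold. The female call was lost without C50, C74 or C75 in turn (log2 -0.303, -0.280 and -0.303), and the male change passed with DESeq2 (-0.278, adjusted p = 0.0326) and without C33, C49 and C50 (-0.378, adjusted p = 0.00459). In the authors' deposited table the male change did not pass, at -0.271 (adjusted p = 0.079).

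Clec7a had 1743, 1422, 1579 and 1564 CPM in bleomycin males and 1513, 1395, 1612 and 1538 CPM in bleomycin females, against 1254, 1225, 1131 and 1305 CPM in saline males and 1223, 1240, 1246 and 1375 CPM in saline females. The lowest bleomycin library was just above the highest saline library, a separation that 29.5% of all genes tested shared in either direction. The rise was small, 0.36 in males on the log2 scale (SE 0.082, adjusted p = 0.0012), 0.25 in females (SE 0.082, adjusted p = 0.0175) and 0.31 averaged (SE 0.058, adjusted p = 0.000163 by the edgeR test). It depended on the scaling: with library totals alone, which moved the median of all genes to -0.2, the averaged value was 0.0957 (adjusted p = 0.138). In females it was also lost without C68, C69 or C75 in turn (0.222, 0.221 and 0.241). The deposited table gives Clec7a the biotype polymorphic pseudogene, a label for a gene whose coding state differs between strains.

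Of the other protein-coding genes within 250000 bases of Olr1, the nearest lectin genes did not move as one. Clec12a, an inhibitory myeloid lectin, rose by 1.33 on the log2 scale (SE 0.088) to 106 CPM with bleomycin, against 42.5 CPM with saline. Clec1b (CLEC-2, the podoplanin receptor) fell by 1.32 (SE 0.095) to 13.5 CPM, against 34 CPM, and Clec1a fell by 0.77 (SE 0.16) to 4.10 CPM, against 6.98 CPM. Clec9a, a dendritic cell receptor for dead cells, rose by 0.48 (SE 0.094) averaged over the sexes, mostly in females. It had 11.13 ± 1.789 CPM in bleomycin females and 5.984 ± 0.3963 CPM in saline females. In males it had 10.43 ± 1.175 CPM with bleomycin and 9.901 ± 1.059 CPM with saline. The natural killer receptor genes that follow in the cluster had larger changes from low levels, such as Klrd1 (log2 4.35, SE 0.29, 13.2 CPM with bleomycin and 0.643 CPM with saline) and Klrk1 (log2 4.68, SE 0.23, 13.5 CPM and 0.519 CPM in the same order). All changes named here passed the edgeR test at an adjusted p of 0.000322 or less. Beside them, all 7 tested markers of a list of NK cell genes, which holds Klrd1, were higher, with sums of 26.8 to 63.4 CPM in bleomycin males and 22.5 to 47.5 CPM in bleomycin females, against 0.775 to 2.17 CPM in saline males and 1.0 to 1.68 CPM in saline females. Of all genes tested, 34.7% were higher averaged over the sexes. The NK marker Ncr1 was at 0 in both saline groups. With sums this low under saline, most of these markers could pass the filter on low counts (limit 0.51 CPM) only through bleomycin libraries. Their direction was therefore partly set by the filter.

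**Figure D2:**
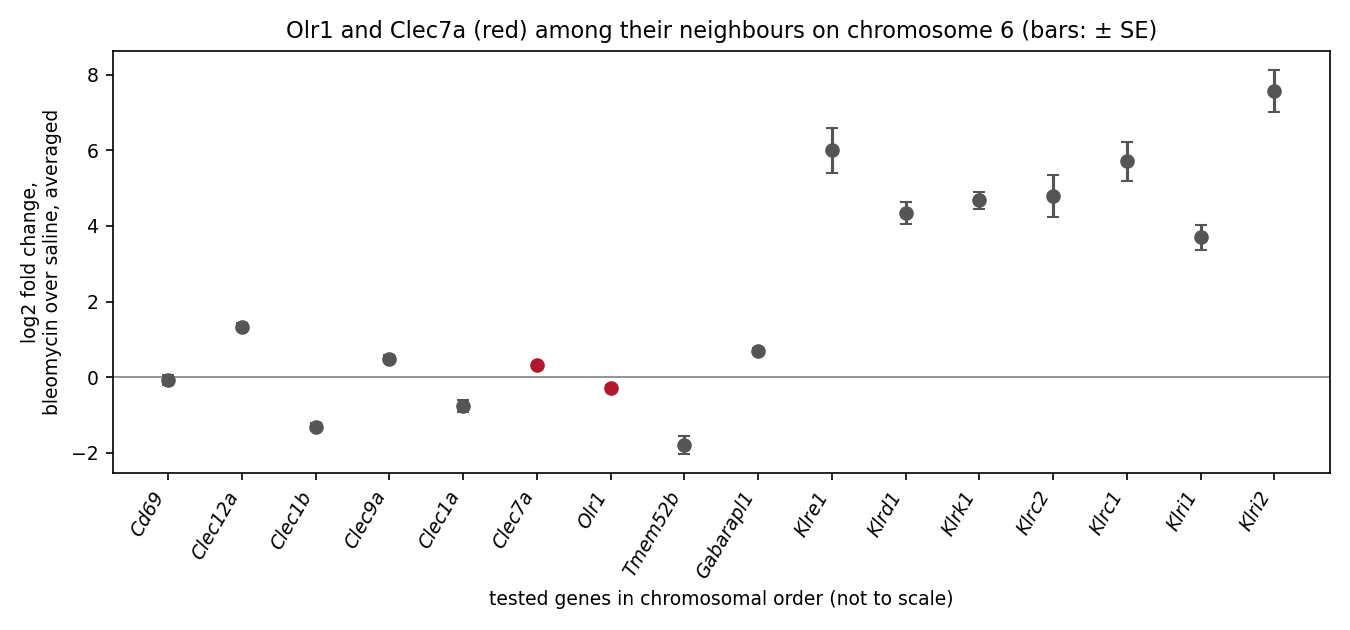
Average log2 fold change (bleomycin over saline) with its standard error for the genes tested within 250000 bases of Olr1, in chromosomal order and not to scale. Olr1 (-0.29) and Clec7a (0.31), in red, lie close to 0 on either side, and the natural killer receptor genes at the far end of the cluster lie at 3.70 and above, the highest of them with 0 counts under saline. Klri1 (0.145 CPM under saline) and those with still lower saline levels passed the filter on low counts through bleomycin libraries.

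Scarb1 (SR-B1, the receptor for high-density lipoprotein, chromosome 5 from 125277087 to 125341094, minus strand) had the same mean with either treatment. It had 217, 147, 197 and 174 CPM in bleomycin males and 193, 182, 229 and 270 CPM in bleomycin females, against 181, 185, 179 and 179 CPM in saline males and 218, 228, 216 and 223 CPM in saline females. Bleomycin libraries lay on both sides of the tightly grouped saline libraries. The coefficient of variation was 16.3% in bleomycin males and 18.3% in bleomycin females, against 1.54% in saline males and 2.42% in saline females. The averaged log2 change was 0.0024 (SE 0.082, adjusted p = 0.982 by the edgeR test), with 0.023 (SE 0.12) in males and -0.019 (SE 0.12) in females. With library totals alone it was -0.214 (adjusted p = 0.0163), close to the shift of -0.2 that this scaling gives the median of all genes.

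Stab1 (stabilin-1, an endocytic receptor for acetylated low-density lipoprotein and the matrix protein SPARC, chromosome 14 from 31139013 to 31168641, minus strand) was nearly absent under saline. It had 48.6, 41.8, 60.1 and 37.9 CPM in bleomycin males and 43.6, 63.3, 36.2 and 48.9 CPM in bleomycin females, against 1.24, 1.66, 1.13 and 1.21 CPM in saline males and 0.444, 0.695, 0.998 and 0.567 CPM in saline females. The saline values rest on 8 to 29 counts a library. The rise was 36.1-fold in males (log2 5.17, SE 0.22, adjusted p = 2.78e-12) and 69.9-fold in females (log2 6.13, SE 0.24, adjusted p = 1.03e-12 by the edgeR test). Stab1 is also made by sinusoidal endothelium, and of 7 endothelial markers, 4 were tested and 3 were higher, beside 34.7% of all genes tested. Cldn5 was at 0 in all 16 libraries, and the 7 markers summed to 160 to 250 CPM in bleomycin males and 155 to 239 CPM in bleomycin females, against 161 to 182 CPM in saline males and 137 to 159 CPM in saline females. Their mean of log2(CPM + 1) was only 1.112 to 1.165 in saline males and 1.079 to 1.142 in saline females. The saline sums thus rest on few of them. Most of the others could pass the filter on low counts (limit 0.51 CPM) only through bleomycin libraries. Their direction was therefore partly set by the filter. Of 10 markers of interstitial and perivascular macrophages, 8 were tested, 6 were higher and 1 lower, beside 34.7% and 28.8% of all genes tested. Cd209f was at 0 in all groups, and their sum was 264 to 286 CPM in bleomycin males and 195 to 284 CPM in bleomycin females, against 24.4 to 40.4 CPM in saline males and 19.9 to 28.3 CPM in saline females. The part of these cells in the rise of Stab1 was not tested.

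Cd163 (the receptor for haptoglobin-haemoglobin complexes, chromosome 6 from 124304656 to 124330527, plus strand) stayed low in all groups. It had 30, 28, 10 and 21 counts in bleomycin males and 32, 22, 23 and 13 counts in bleomycin females, against 4, 6, 5 and 12 counts in saline males and 7, 5, 19 and 4 counts in saline females. Scaled for depth, the bleomycin libraries C66, C67, C50 and C69 (0.496, 0.939, 0.925 and 0.798 CPM) lay below the highest saline library, C76 (0.998 CPM), and C73 was the other saline library above the lowest bleomycin one. The averaged rise was 1.44 on the log2 scale (SE 0.35, adjusted p = 0.00165 by the edgeR test), and the ratio of summed counts, scaled for depth, was 2.73 (95% exact counting interval 2.04 to 3.71). In males the log2 change was 1.59 (SE 0.51, adjusted p = 0.0125) and in females 1.29 (SE 0.49, adjusted p = 0.0402). The female call was lost without any 1 of C49, C50, C68, C74, C75 or C77, with values of 1.04 to 1.35.

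Cd5l (CD5 antigen-like, also called AIM, a secreted protein that binds lipids and is taken up by macrophages, chromosome 3 from 87357881 to 87371073, plus strand) was the member closest to absent under saline. It had 58, 129, 95 and 160 counts in bleomycin males and 40, 86, 32 and 62 counts in bleomycin females, against 0, 2, 0 and 1 counts in saline males and 0 counts in all 4 saline females. In CPM this was 2.53, 6.76, 4.71 and 7.16 in bleomycin males and 1.95, 3.61, 1.67 and 3.80 in bleomycin females. Every bleomycin library was above every saline library. In males the ratio of summed counts was 136 (95% exact counting interval 46.2 to 661, adjusted p = 3.01e-07 by the edgeR test). In females the level was at least 71.4-fold higher with bleomycin, taking 3 counts over the group, or 0.0386 CPM, as the limit that a count of 0 allows (adjusted p = 9.39e-07). These intervals and limits cover counting error only. All 5 members that rose with bleomycin, averaged over the sexes, therefore had very different starting points under saline, from 0 counts for Cd5l in females to 28521 counts in a library for Clec7a.

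**Figure D3:**
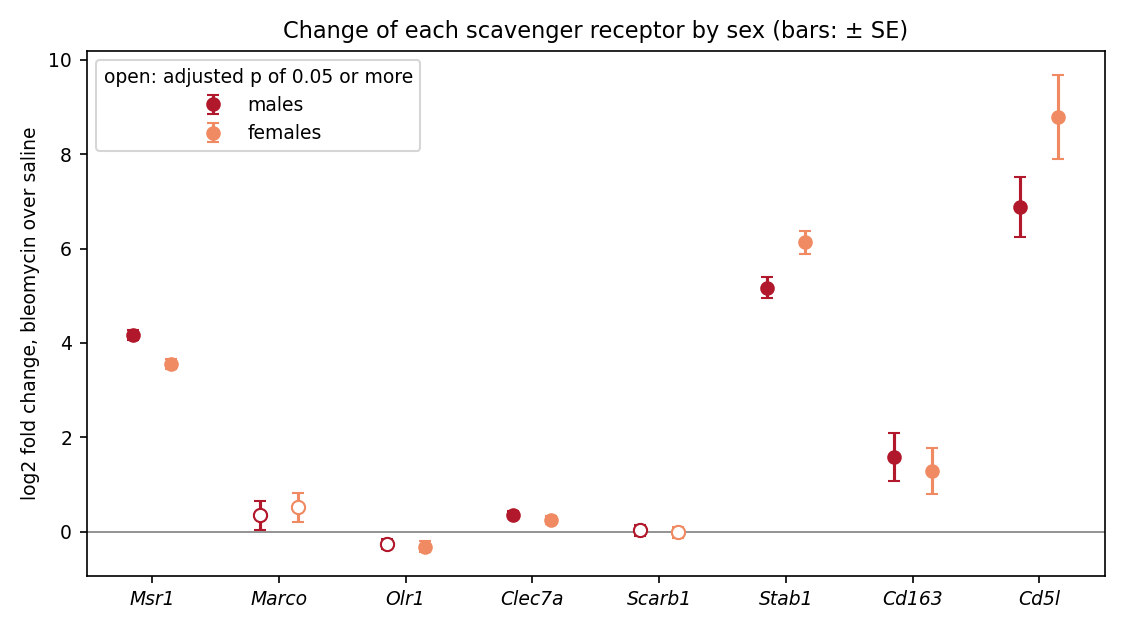
Log2 fold change with its standard error for the 8 genes, bleomycin over saline, in males and in females, with open points for an adjusted p of 0.05 or more. Msr1, Stab1 and Cd5l lie above 3, Cd163 between 1 and 2, and the other 4 between -0.32 and 0.51. For Cd5l in females the point is a fitted value against 0 counts and is no measure of size.

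Between the sexes, Msr1 was the single member that passed with edgeR over all 16 libraries, and Scarb1 passed under other settings given beside its values. Under saline it was lower in males (16.5 ± 1.28 CPM) than in females (24.3 ± 3.01 CPM, SD, n = 4 each), with no overlap and a log2 difference of -0.56 (SE 0.10, adjusted p = 0.0252 by the edgeR test). Of all genes tested, 0.269% passed in that comparison, 0.125% as lower in males, and 6.30% were lower in males with no overlap. The call was fragile: it was lost without any 1 of C70, C71, C72, C73, C74, C75 or C76, with values of -0.595 to -0.500 and adjusted p of 0.0574 to 0.128. Under bleomycin Msr1 had 297 ± 13.6 CPM in males and 286 ± 37.3 CPM in females (log2 difference 0.058, SE 0.096, adjusted p = 0.995). The bleomycin change was larger in males by 0.62 on the log2 scale (SE 0.14), a difference with an unadjusted p of 0.000408 that did not pass over all genes with edgeR (adjusted p = 0.323) and passed with DESeq2 (adjusted p = 0.0343). The change of Stab1 was smaller in males by 0.95 (log2 -0.95, SE 0.36, unadjusted p = 0.0155, adjusted p = 0.595 by the edgeR test). With edgeR 0.00655% of all genes tested passed for that difference between the sexes.

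Scarb1 and Stab1 also did not overlap between the sexes under saline. Scarb1 averaged 181 ± 2.78 CPM in saline males and 221 ± 5.34 CPM in saline females, a log2 difference of -0.29 (SE 0.12, adjusted p = 0.437). With the spread taken from the 8 saline libraries alone it was -0.300 (adjusted p = 0.00302). Stab1 averaged 1.31 ± 0.238 CPM in saline males and 0.676 ± 0.238 CPM in saline females, a log2 difference of 0.93 (SE 0.32, adjusted p = 0.336 by the edgeR test), and 6.85% of all genes were higher in males with no overlap. Under bleomycin 0 of the 8 passed at an adjusted p under 0.05 with edgeR or DESeq2, beside 0.059% of all genes, and 2 had an unadjusted p under 0.05. These were Cd5l, at 5.29 ± 2.13 CPM in males and 2.76 ± 1.11 CPM in females (log2 0.94, SE 0.38, adjusted p = 0.995), and Scarb1, at 184 ± 29.9 CPM in males and 218 ± 40.02 CPM in females (log2 -0.25, SE 0.12, adjusted p = 0.995). Without C33, C49 and C50 the Scarb1 difference was -0.503 (adjusted p = 0.00592). That setting leaves only C68 and C69 as bleomycin females, and C69 had the highest Scarb1 level of all libraries (270 CPM). Over all genes, 449 were then called higher and 221 lower in males, against 5 and 4 with all libraries.

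Libraries of 1 group also differed from one another in these genes. Scarb1 was lowest in C65 (147 CPM) and highest in C69 (270 CPM), and the T cell markers averaged 5.515 on the log2(CPM + 1) scale in C65, the highest of all, and 4.18 in C69. Over the deviations of the 16 libraries from their group means, Scarb1 and the T cell markers had a Pearson r of -0.849 (Spearman -0.653), and Scarb1 and the resident macrophage markers an r of 0.849 (Spearman 0.835). Without the 2 libraries farthest out on the marker level they were -0.816 and 0.946, and without C33, C49 and C50 they were -0.561 and 0.551. The relation was not particular to T cells. Scarb1 had an r of -0.893 with NK cell, -0.794 with endothelial and -0.724 with B and plasma cell markers. With the markers of macrophages in general it was 0.774. Without C33, C49 and C50 these 4 values were, in the same order, -0.782, -0.468, -0.019 and 0.708. The pairs were picked from 104 of 8 members with 13 marker lists after their values were seen, and both measures come from the same library, so they share its depth and cell makeup. The part of the other cells in the Scarb1 values was not tested.

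**Figure D4:**
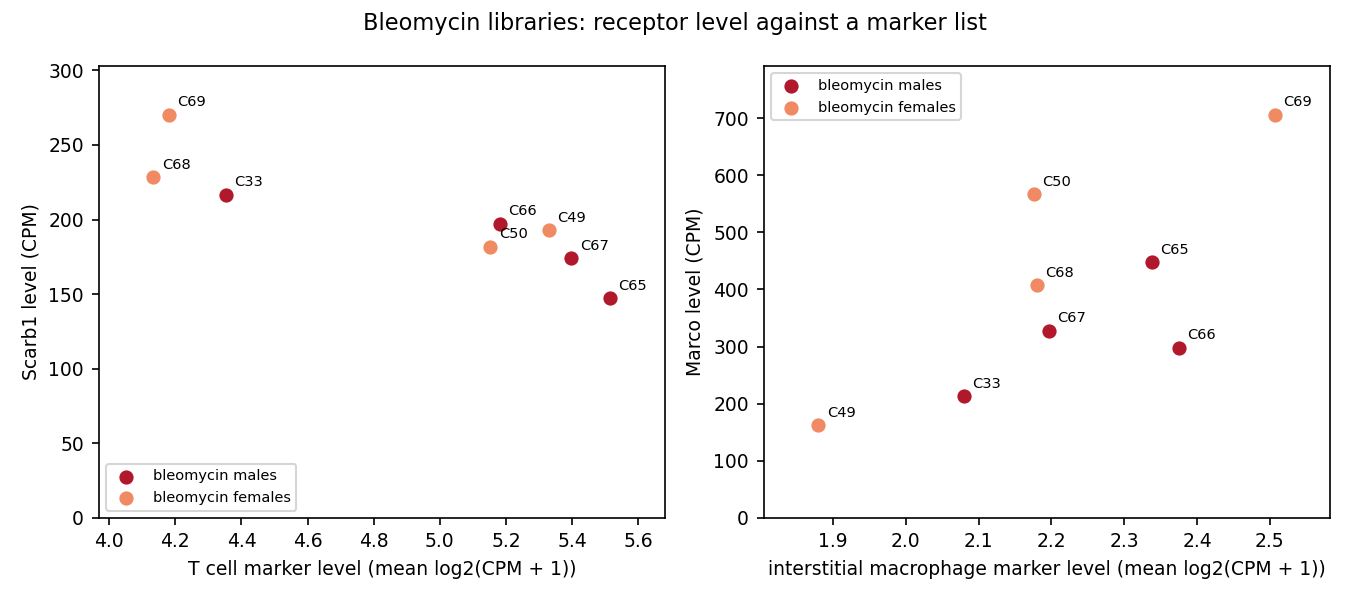
Level of Scarb1 (CPM) against the T cell markers, and of Marco against the interstitial and perivascular macrophage markers, both marker lists as a mean of log2(CPM + 1), with 1 point for each of the 8 bleomycin libraries. C65, highest in T cell markers, was lowest in Scarb1, and over the deviations of all 16 libraries r was -0.849. With the NK cell markers, which are not drawn, Scarb1 had an r of -0.893. For Marco and its marker list r was 0.739 over the 16 libraries and 0.314 without C69 and C49, the 2 farthest out.

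The genes whose deviations from the group means were most like those of each member, among protein-coding genes tested, were the following over 16 libraries. For Scarb1 they included Axl (r 0.932), a receptor for apoptotic cells, and Sept9 (0.930), a septin. For Olr1 they were Pik3ap1 (0.945), Dag1 (0.932) and Phkb (0.923). For Marco they were Mrpl44 (0.942), Esd (0.927) and Sqstm1 (0.918), with 0.747, 0.844 and 0.726 when C33, C49 and C50 were left out. Cd5l was most like Tubb2a (0.913), Tyro3 (0.907) and Nxn (0.898), and Stab1 most like Arid3a (0.897), Mras (0.814) and Slc22a4 (0.779). Clec7a had among them Dusp7 (0.876) and Evl (0.848), and Msr1 had Tbcd (0.861), Cox15 (0.839) and Zfp362 (0.831). Cd163 had Hsd11b2 (0.851), Zfp965 (0.798) and Arl14ep (0.792). Low levels limit several of these values: Hsd11b2 averaged 0.824 CPM, Zfp965 0.426 CPM and Tyro3 0.62 CPM. Cd163 itself had 10 to 32 counts in a bleomycin library and 4 to 19 in a saline one, and Cd5l had 0 to 2 counts in a saline library. Among the 28 pairs of members the closest were Olr1 with Clec7a (r 0.682), Marco with Cd5l (0.669) and Scarb1 with Clec7a (0.645), and without the 2 farthest libraries these were 0.459, 0.714 and 0.404. The most opposed were Clec7a with Cd5l (-0.591), Olr1 with Cd5l (-0.485) and Olr1 with Stab1 (-0.394). Without the 2 farthest libraries those were -0.479, -0.544 and -0.219. When C33, C49 and C50 were left out, the closest pairs had 0.493, 0.666 and 0.327, in the same order. The most opposed pairs then had -0.255, -0.138 and -0.429. All these pairs were picked from the 28 after their values were seen.

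A further 17 scavenger receptors were listed, of which 11 were tested, 5 rose, 3 fell and 3 did not pass, with a median log2 change of 0.0152. Of all genes tested, 34.7% rose and 28.8% fell. Lrp2 had the largest fitted change, 5.66 on the log2 scale (SE 0.65), which rests on 62 and 56 counts over bleomycin males and females, against 2 and 0 counts over saline males and females, and so is no measure of size. The next largest were those of Cxcl16, a receptor for oxidised lipoprotein and phosphatidylserine that is also a chemokine (log2 4.23, SE 0.16, adjusted p = 8.99e-14 by the edgeR test), Ager, the receptor for advanced glycation end products (log2 2.45, SE 0.13), and Colec12, a collectin-type receptor (log2 1.65, SE 0.16). Mrc1, the mannose receptor, fell by 0.71 (SE 0.083) to 1152 ± 160 CPM in bleomycin males and 1283 ± 217 CPM in bleomycin females, against 1870 ± 126 CPM in saline males and 2127 ± 152 CPM in saline females. Scarf2 fell by 0.58 (SE 0.15). Cd36, the other well-known class B receptor, named here after its value was seen, had a log2 change of -0.22 (SE 0.096, adjusted p = 0.0501). With library totals alone 6 of the list fell.

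Of 16 other myeloid C-type lectins, all tested, 10 rose, 4 fell and 2 did not pass, with a median of 1.03, beside the 34.7% of all genes tested that rose and the 28.8% that fell. Mgl2 (log2 3.91, SE 0.17) and Clec10a (log2 3.10, SE 0.23), galactose-binding lectins, Cd209a (log2 2.86, SE 0.23), a homologue of DC-SIGN, and Clec4d (log2 2.83, SE 0.11), a partner of Mincle, had the largest rises. Clec1b fell by 1.32 and Clec2d by 1.23 (SE 0.11). Beside them, all 9 markers of dendritic cells, which also make several of these lectins, were higher in females and averaged over the sexes. In males 8 were higher and 1 did not pass. Their sums were 370 to 721 CPM in bleomycin males and 320 to 532 CPM in bleomycin females, against 28.0 to 58.8 CPM in saline males and 25.3 to 31.7 CPM in saline females. That marker list holds Cd209a and Clec9a, which are also among the 16 lectins, so their values count in both. The part of dendritic cells in the lectin values was not tested. Of 13 genes of the pathway by which dectin-1 signals, 7 rose, 4 fell and 2 did not pass, with a median of 0.167. The kinase Src rose by 2.67 (SE 0.16), the exchange factor Vav3 by 0.97 (SE 0.064) and the kinase Prkcd by 0.33 (SE 0.059). The adaptor Card9 fell by 0.52 (SE 0.060) and the kinase Syk by 0.24 (SE 0.061, adjusted p = 0.00248). The fall of Syk lay mostly in males, at 485.8 ± 67.21 CPM with bleomycin and 650.8 ± 24.18 CPM with saline. In females Syk had 540.4 ± 13.96 CPM with bleomycin and 560.2 ± 24.49 CPM with saline. With library totals alone 2 rose and 5 fell, and without C33, C49 and C50 4 rose, so the balance of this list was not stable.

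**Figure D5:**
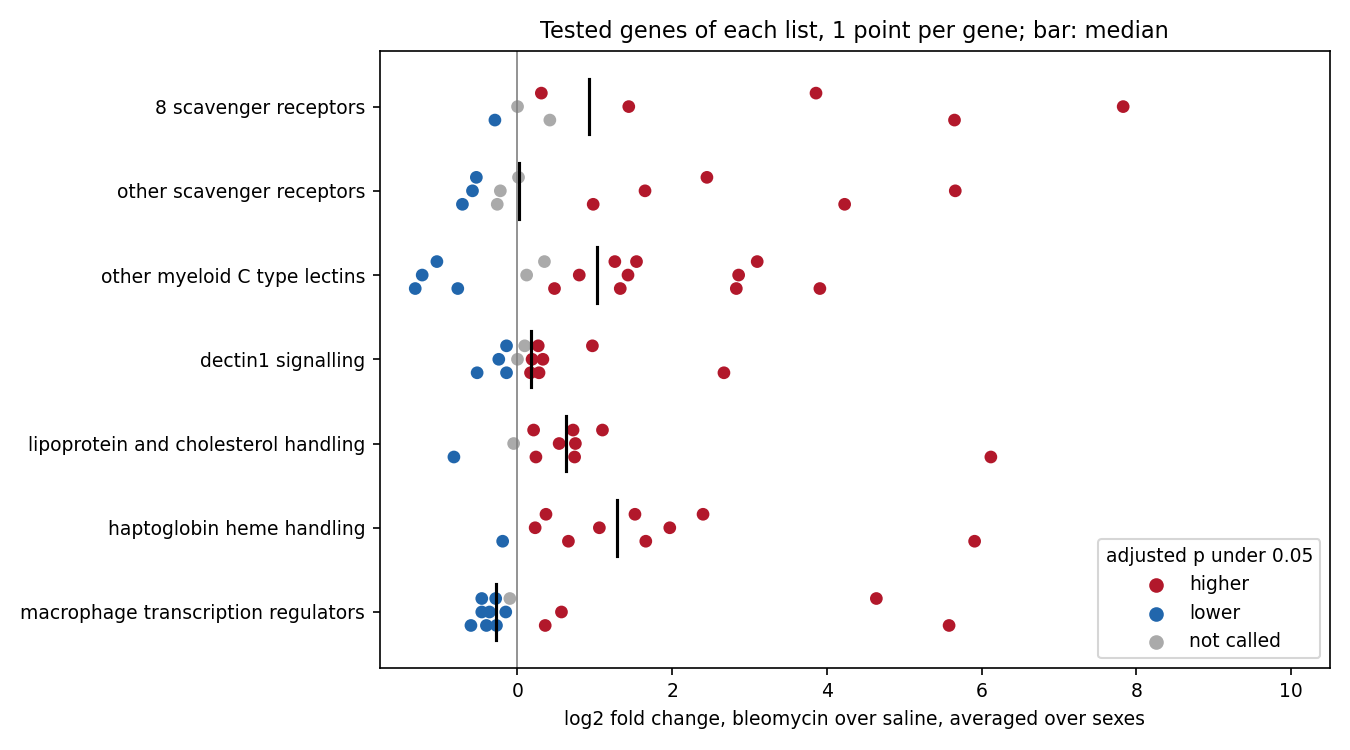
Average log2 fold change (bleomycin over saline) of each tested gene in the 8-gene group and in the 6 pathway lists, with the colour showing whether it passed at an adjusted p under 0.05 and a bar at the median. The haptoglobin and haem list lies mostly to the right of 0 (median 1.29) and the regulator list mostly to the left (median -0.273), with Maf (4.64) far to the right.

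The next lists hold genes that handle the cargo of these receptors, and their counts stand beside a share of 34.7% of all genes tested that rose and 28.8% that fell. Of 11 lipoprotein and cholesterol genes, 10 were tested, 8 rose, 1 fell and 1 did not pass, with a median of 0.63. Apoe, the main apolipoprotein of macrophages, had a log2 change of 6.12 (SE 0.17) and the lysosomal cholesterol carrier Npc2 one of 1.10 (SE 0.076). Abcg1, which exports cholesterol to high-density lipoprotein, fell by 0.82 (SE 0.084) to 1119 ± 157 CPM in bleomycin males and 1159 ± 184 CPM in bleomycin females, against 2216 ± 105 CPM in saline males and 1822 ± 193 CPM in saline females. Of 12 genes for haptoglobin and haem, 10 were tested, 9 rose and 1 fell, with a median of 1.29. Haptoglobin itself (Hp) was at 69.7 ± 10.1 CPM in bleomycin males and 68.9 ± 25.7 CPM in bleomycin females, against 1.01 ± 0.204 CPM in saline males and 1.29 ± 0.416 CPM in saline females (log2 5.91, SE 0.19). The iron exporter Slc40a1 (log2 2.40, SE 0.24), haem oxygenase Hmox1 (log2 1.97, SE 0.30) and ferritin heavy chain Fth1 (log2 1.66, SE 0.12) rose as well, with Fth1 uncertain because of its many pseudogene copies. Blvra fell by 0.19 (SE 0.074, adjusted p = 0.0343 by the edgeR test), a call that was lost without any 1 of C33, C67, C49, C50, C70, C72, C76 or C77. Hp is also a neutrophil gene, and of 10 neutrophil markers 7 were tested, 6 were higher and 1 lower, with sums of 191 to 236 CPM in bleomycin males and 196 to 206 CPM in bleomycin females, against 81.5 to 100.1 CPM in saline males and 85.9 to 124 CPM in saline females, and Ly6g at 0 in bleomycin females and both saline groups. Red blood cell markers, whose haemoglobin is the cargo of Cd163, were spread widely, with 5 of 5 tested higher in males and averaged over the sexes, 0 of 5 passing in females (median log2 change 1.68) and sums of 67.3 to 6020 CPM in bleomycin males and 176 to 1040 CPM in bleomycin females, against 7.23 to 167 CPM in saline males and 7.52 to 440 CPM in saline females. The part of either cell type in these values was not tested.

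Of 13 transcription regulators of macrophages, 4 rose, 8 fell and 1 did not pass, with a median of -0.273, beside the 34.7% of all genes tested that rose and the 28.8% that fell. Maf (log2 4.64, SE 0.20) and Irf8 (log2 0.57, SE 0.067) were among those that rose. Pparg, needed for the alveolar macrophage state, fell by 0.60 (SE 0.10), and so did Cebpb by 0.46 (SE 0.12). Spi1, which encodes PU.1, named here after its value was seen, had a change of -0.097 (SE 0.079, adjusted p = 0.293 by the edgeR test).

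Genes above an unadjusted p of about 0.05 are left out of the authors' deposited tables. In the authors' deposited table of bleomycin against saline over both sexes, 6 of the 8 members are listed, with log2 changes of 3.82 for Msr1, 5.57 for Stab1, 7.63 for Cd5l, 1.43 for Cd163, 0.293 for Clec7a and -0.307 for Olr1. Marco and Scarb1 are not listed there. Between saline males and saline females, the authors' deposited table gives Scarb1 a log2 difference of -0.306 (adjusted p = 2.5e-08) and Msr1 one of -0.572 (adjusted p = 2.9e-05), and it lists Marco (-0.368, adjusted p = 0.171) and Stab1 (0.926, adjusted p = 0.0998). For bleomycin males over bleomycin females, the authors' deposited table lists Cd5l alone of the 8 (0.936, unadjusted p = 0.011, adjusted p = 1.0). For bleomycin over saline in females, the authors' deposited table gives Cd163 an adjusted p of 0.0716, where the edgeR test gave 0.0402.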

How the data were processed

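The members, lists and tests were chosen with earlier results of these data known. The submitters' processing notes name the tools HISAT2 2.0.5, fastp 0.12.2, DESeq2 and featureCounts 1.5.0-p3 and the genome builds mm9 and mm10, with no role stated for either build. The settings used for strand are not given in the sources used here. The authors deposited raw counts per Ensembl gene, and FPKM values that equal the count divided by gene length and a constant per library. The log2 fold changes and p-values in the authors' deposited comparison tables are their own. Of 54532 deposited gene identifiers, 54409 are in GENCODE M21 (GRCm38), and 53462 of these (98.26%), all 8 members included, have the same coordinates there.

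The 16 count columns were matched to samples by their codes, with 0 columns left over. Counts were tested with edgeR 4.0.16 under R 4.3.3: 1 quasi-likelihood fit of the 16 libraries with 1 coefficient per group, TMM scaling (factors 0.8635 to 1.098), filterByExpr with a minimum count of 10, and Benjamini-Hochberg adjustment over the 15257 genes kept. Calls were made at an adjusted p under 0.05. Standard errors were taken from the fold change and its F value. The fit was tested on simulated data. The floor for a count of 0 was 3 counts over a group, at 0.0355 to 0.0386 CPM. Likeness used log2(CPM + 1). The alternatives were DESeq2 1.42.0, other size factors, library totals, no filter, only the groups compared, and left-out libraries.

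The text names all 8 members. From each pathway list it names up to 4 called genes with the largest change and up to 2 called in the opposite direction, for each member the 3 most alike genes, and neighbours within 250000 bases. Some genes that this rule names are not reported here.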

Additional observations from a re-analysis of the deposited data

Results flagged for a closer look

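Of 31 sets of 4 libraries (the 8 genes in each group, leaving out the set with 0 counts throughout), 1 held a library far from the other 3. Clec7a had 1375 CPM in the saline female library C77, against 1223 to 1246 CPM in the other 3 saline females, a gap of 0.849 of the whole range, which is above the 95% critical value of Dixon's test for 4 values. Chance gives such a gap in about 1 of 20 sets. The library was still below every bleomycin library.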

How the results depend on the processing

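Of the 269 comparisons of a member's log2 fold change with the 6 alternatives other than leaving out 1 library, 237 kept direction and call. The rises of Msr1, Stab1 and Cd5l with bleomycin kept theirs in every alternative run. The cause of the changes below was not tested. The replicate codes of the groups differ. No paired analysis was possible because the groups compared share no replicate number.

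With DESeq2 and with RLE size factors, Olr1 in males passed at -0.278, Scarb1 averaged turned to -0.0127, and DESeq2 called the interaction of Msr1 at 0.620 (1 member called higher there). With library totals alone the values were -0.491 (Olr1 males, called), -0.203 and -0.214 (Scarb1 males and averaged), 0.133, 0.0587 and 0.0957 (Clec7a males, females and averaged, not called) and 1.11 (Cd163 females, not called). With no filter they were 0.407 (Marco averaged, called), -0.0154 (Scarb1 averaged), 1.26 (Cd163 females) and 0.219 (Clec7a females), the last 2 not called. With only the groups compared, Cd163 (1.27) and Clec7a (0.225) in females lost their call, and Scarb1 under saline gained one between the sexes (-0.300).

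Without C33, C49 and C50, Marco passed in males (0.470), females (0.711) and averaged (0.591), Olr1 in males (-0.378) and Scarb1 between the sexes under bleomycin (-0.503) and saline (-0.306). Cd163 in females was not called (1.07). Uncalled values that changed sign were Scarb1 in males (-0.0888), in females (0.107) and in the interaction (-0.196), Olr1 in the interaction (-0.0708), and Stab1 (0.159) and Clec7a (-0.0255) between the sexes under bleomycin.

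Members called lower in males numbered 1, not 0, with DESeq2, RLE, library totals or without those 3 libraries. Members called higher in females numbered 3, not 5, with library totals, no filter or only the groups compared. Averaged over the sexes 2 were lower with library totals. Without the 3 libraries 1 was lower between the sexes under bleomycin, and 2 under saline, as with only the groups compared.

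Leaving out 1 library in turn gave ranges, lowest to highest, of -0.355 to -0.184 (Olr1 males), -0.388 to -0.280 (Olr1 females), 0.201 to 0.789 (Marco females), 0.270 to 0.565 (Marco averaged), 1.04 to 2.0 (Cd163 females), 0.221 to 0.293 (Clec7a females), -0.0644 to 0.111, -0.163 to 0.0370 and -0.0712 to 0.0323 (Scarb1 males, females and averaged). Between the sexes they were -0.637 to -0.500 (Msr1, saline), -0.776 to 0.320 (Cd163, saline), and, under bleomycin, -0.159 to 0.0189 (Olr1), -0.163 to 0.141 (Stab1) and -0.286 to 0.141 (Cd163). Interactions ran from -0.447 to 0.138 (Marco), -0.0375 to 0.161 (Olr1), -0.0466 to 0.183 (Scarb1) and -0.413 to 0.683 (Cd163). Counts of members ran from 0 to 1 (lower in males, in females and between the sexes under saline) and 3 to 5 (higher in females).

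Over all genes, library totals alone moved the split of higher and lower calls to 3720 and 7004, against 5300 and 4400 averaged over the sexes, to 3416 and 6133 against 4810 and 3804 in males, and to 3133 and 4836 against 4070 and 2629 in females. Without the 3 libraries 4142 genes were lower in females. Calls between the sexes under saline were 22 higher and 19 lower in males, against 100 and 91 with DESeq2, 390 and 374 with only the saline libraries, 59 and 60 with no filter and 122 and 155 without the 3 libraries. Under bleomycin they were 5 and 4, against 449 and 221 without the 3 libraries. The interaction had 0 and 1, against 10 and 13 with DESeq2 and 58 and 19 without the 3 libraries. With no filter the bleomycin comparison had 9 higher and the interaction 6 and 9, with only the groups compared the bleomycin one had 2 lower, and with library totals the interaction had 0 lower and the lipoprotein list 2 lower, against 1. With no filter 8 further scavenger receptors were called higher, against 5, and without the 3 libraries 5 were lower, against 3. Depth limits Cd163 and Cd5l, with 4 to 32 and 0 to 160 counts a library.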
